A study of Mus musculus with 6 samples.

Results

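The caveolin, cavin and *Ehd2* genes encode the coat of caveolae, the flask-shaped pits of the plasma membrane. They were followed in RNA-Seq counts of 3T3-L1 adipocytes transduced with a control (AdLacZ) or an *Lmo3*-carrying (Ad*Lmo3*) adenovirus. The genes were taken by symbol from the count tables, in which the cavins carry their older names: *Cav1*, *Cav2*, *Ptrf* (cavin-1), *Sdpr* (cavin-2), *Prkcdbp* (cavin-3) and *Ehd2*. With *Cav3* and *Murc* (cavin-4), the caveolin and cavin of muscle, these were 8 of the 24421 gene symbols. All 6 genes of the first set had enough counts to be tested, as had *Murc*, whereas *Cav3* had none.

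3T3-L1 is a mouse fibroblast line that becomes adipocytes in culture, labelled C57BL/6 by the submitters. All 6 cultures were differentiated with insulin (870 nM), TZD (5 µM), Dex (1 µM) and IBMX (500 µM), of which Dex and IBMX were withdrawn on day 3. They were infected on day 7 with 100 pfu/cell, and RNA was taken 72 h later from 3 replicates with AdLacZ and 3 with Ad*Lmo3*. Both groups therefore carry a virus, and no uninfected culture was analysed here.

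Caveolins insert into the inner leaflet of the membrane as a hairpin and form the core of the coat together with cholesterol. Cavins are cytosolic proteins that assemble around this core and stabilize the curved membrane, and EHD2 is an ATPase at the neck that holds caveolae at the cell surface. Adipocytes are among the cells richest in caveolae, and loss of caveolin-1 or cavin-1 leads to lipodystrophy in mice and humans.

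Of the 6 genes, *Cav1* and *Ptrf* were higher in Ad*Lmo3* libraries at an adjusted p-value under 0.05, by 1.46-fold and 1.33-fold, and none was lower. *Cav2*, *Sdpr*, *Prkcdbp* and *Ehd2* had higher means as well, by 1.14-fold to 1.31-fold, and did not pass the threshold. Over all 12766 genes tested, 4.28% passed in either direction and 2.71% were higher in Ad*Lmo3* libraries. All 6 log2 fold changes lay above 0, where 50.4% of all genes did. Each of the 6 had an unadjusted p under 0.05 in edgeR, where 20.6% of all genes did. Their number was 5 with upper-quartile factors, 4 with no scaling beyond the library total, and 4 to 6 with 1 library left out. The median log2 fold change was 0.38 over the 6 genes and 0.00 over all genes tested. The values of the 2 groups did not overlap in 5 of the 6 genes, compared with 26.5% of all genes tested. The tests come from edgeR's quasi-likelihood fit across all genes, with levels given as CPM, a gene's reads relative to the library size scaled by the trimmed mean of M-values (TMM), with Benjamini-Hochberg adjustment over all genes.

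The libraries held 28035639 to 38332335 counts on genes. In the fit across all genes 346 genes passed as higher with Ad*Lmo3* and 201 as lower, and with no scaling beyond the library total the split was 266 against 501. *Lmo3* itself had 0 counts in every library, and since the virus carries a codon-optimized sequence the labels could not be checked through it. Markers of adipocytes were abundant in all 6 libraries, with a summed level of 24300 to 27500 CPM in AdLacZ and 33170 to 39980 CPM in Ad*Lmo3* libraries over 16 genes. Of these, 11 rose and none fell, where 2.71% of all genes tested passed as higher. Of the 16 markers, 3 were called without AdLacZ replicate 3 and 7 without AdLacZ replicate 2 or Ad*Lmo3* replicate 2. Their part in the results on caveolar genes was not tested. Markers of preadipocytes and fibroblasts (13 genes) summed to 26730 to 32450 CPM in AdLacZ and 25210 to 37230 CPM in Ad*Lmo3* libraries, so that the groups overlapped. In both sums the genes of highest level weigh most. The collagen genes *Col3a1*, *Col1a2* and *Col1a1* had means of 11383, 8310 and 5105 CPM in AdLacZ libraries. Among the adipocyte markers *Lpl*, which was not called, had 9648 CPM there. Endothelial, skeletal muscle and macrophage lists, of 8, 8 and 6 genes, summed to at most 3.74, 68.5 and 5.86 CPM in a library. *Tie1*, *Myod1*, *Myog*, *Ckm*, *Myh4*, *Adgre1*, *Ptprc* and *Itgam* had no more than 3 counts in any library. These RNAs come from whole cultures, in which fewer cells of a kind and less RNA per cell cannot be told apart.

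*Cav1* encodes caveolin-1, without which non-muscle cells form no caveolae. It lies on chromosome 6 of GRCm38 from 17306335 to 17341452 on the plus strand. Its count was 76196, 74223 and 77747 in AdLacZ replicates 1, 2 and 3, and 107671, 110579 and 90034 in Ad*Lmo3* replicates 1, 2 and 3. After normalization these were 2141, 1900 and 2293 CPM against 2907, 3003 and 3333 CPM. Each Ad*Lmo3* library lay above each AdLacZ library, and the group means were 2111 ± 198 and 3081 ± 224 CPM (SD, n = 3 each). The log2 fold change was 0.55 (standard error 0.0989, 95% interval 0.32 to 0.77, adjusted p = 0.0237, edgeR).

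*Ptrf* encodes cavin-1, the cavin that caveolae require and on which the recruitment of the other cavins depends. It lies on chromosome 11 from 100956733 to 100970887 on the minus strand. Its normalized level was 863, 903 and 909 CPM in AdLacZ replicates 1, 2 and 3, and 1188, 1207 and 1172 CPM in Ad*Lmo3* replicates 1, 2 and 3. The libraries of a group lay close together, with a coefficient of variation of 2.81% in AdLacZ and 1.45% in Ad*Lmo3*, and the groups were well apart. The log2 fold change of *Ptrf* was 0.41 (standard error 0.0670, 95% interval 0.26 to 0.57, adjusted p = 0.0161, edgeR). *Ptrf* thus had the smaller fold change but also the smaller standard error of these genes.

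Both calls depended on single libraries, while their direction did not. Without AdLacZ replicate 1, 2 or 3 or Ad*Lmo3* replicate 2 or 3, the adjusted p-value of *Cav1* lay between 0.0591 and 0.0881 in edgeR. Its log2 fold change ranged from 0.48 to 0.61 over the 6 fits that leave out a library. *Ptrf* lost its call in edgeR without AdLacZ replicate 1 (adjusted p = 0.0524), AdLacZ replicate 3 (0.0801) or Ad*Lmo3* replicate 2 (0.0834), with log2 fold changes from 0.39 to 0.43 over the 6 fits.

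**Figure D1:**
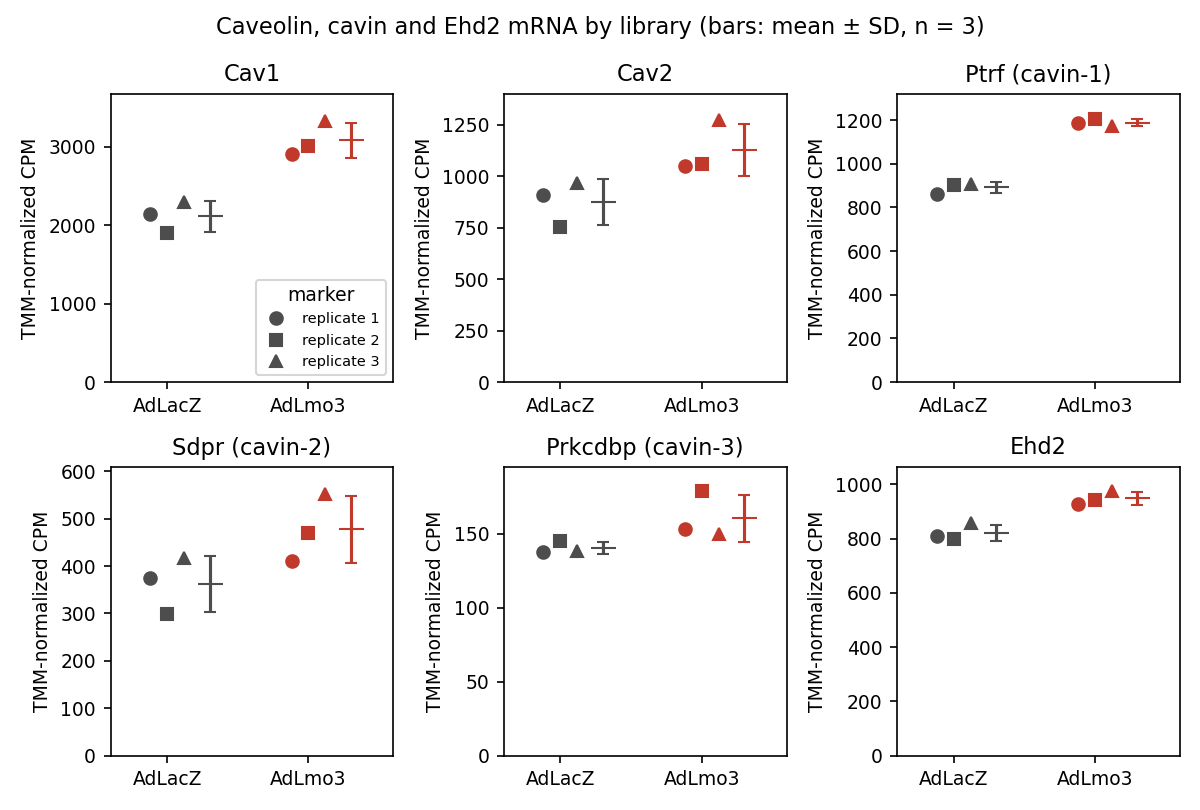
TMM-normalized CPM (vertical axes, from 0) of each gene in each library, with circles, squares and triangles for replicates 1, 2 and 3 and bars for the mean ± SD of 3 libraries. *Cav1* sits between 1900 and 2293 in AdLacZ and between 2907 and 3333 in Ad*Lmo3* libraries, *Ptrf* is tight within groups, and the groups overlap for *Sdpr*.

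*Cav2* encodes caveolin-2, which forms hetero-oligomers with caveolin-1 and needs it to leave the Golgi. It lies 17219 bases from *Cav1*, upstream on the same strand, from 17281185 to 17289115. *Cav2* had 906, 751 and 966 CPM in AdLacZ replicates 1, 2 and 3, and 1049, 1059 and 1271 CPM in Ad*Lmo3* replicates 1, 2 and 3. The groups did not overlap, but the coefficient of variation within them was 12.7% and 11.2%. The log2 fold change was 0.36 (standard error 0.118, 95% interval 0.09 to 0.64), with an adjusted p of 0.130 from edgeR.

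The start regions of *Cav1*, *Cav2* and *Ptrf* are shown because *Cav1* and *Ptrf* passed the threshold and *Cav2* is the neighbour of *Cav1*. Each sequence is from RefSeq (GRCm38.p6) and runs from 250 bases before the start site to 50 bases from it, 5′ to 3′ on the strand of the gene. Capitals mark the GC box GGGCGG and the CCAAT box on either strand. AGGTCA, a half-site of nuclear receptors such as PPARγ, was searched in the same way. The coordinates are chr6:17306085-17306384 (plus) for *Cav1*, chr6:17280935-17281234 (plus) for *Cav2* and chr11:100970568-100970867 (minus) for *Ptrf*. In GENCODE, the source of the gene positions above, *Ptrf* on its minus strand begins at 100970887. The *Ptrf* window therefore lies inside the GENCODE gene, and its positions hold for the RefSeq start only. *Cav1* and *Ptrf* each have 2 listed starts, of which the first is given.
Cav1: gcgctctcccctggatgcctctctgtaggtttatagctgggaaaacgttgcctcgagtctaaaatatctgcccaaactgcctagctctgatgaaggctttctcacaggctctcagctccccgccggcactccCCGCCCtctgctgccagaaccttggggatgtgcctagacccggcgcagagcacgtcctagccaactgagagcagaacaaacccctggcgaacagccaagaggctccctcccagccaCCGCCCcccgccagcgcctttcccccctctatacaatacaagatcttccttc
Cav2: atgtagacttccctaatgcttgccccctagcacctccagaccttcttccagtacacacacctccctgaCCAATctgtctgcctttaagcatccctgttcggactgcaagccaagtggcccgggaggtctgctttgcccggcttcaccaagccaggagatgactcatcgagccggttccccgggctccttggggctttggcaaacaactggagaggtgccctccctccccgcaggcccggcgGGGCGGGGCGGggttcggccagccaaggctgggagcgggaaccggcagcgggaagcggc
Ptrf: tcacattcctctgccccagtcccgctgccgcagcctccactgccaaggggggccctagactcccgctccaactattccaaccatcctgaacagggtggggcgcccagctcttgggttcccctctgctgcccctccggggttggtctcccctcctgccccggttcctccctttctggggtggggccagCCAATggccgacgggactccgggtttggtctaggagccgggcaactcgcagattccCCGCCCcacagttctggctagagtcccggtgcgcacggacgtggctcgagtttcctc

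The *Cav1* window held 2 GC boxes, the first beginning 118 bases before the start site, and no CCAAT box. At the second listed *Cav1* start (chr6:17307390-17307689) the window held no GC box, CCAAT box or AGGTCA. In *Cav2* there were 2 GC boxes next to the start site, which share 1 base, and a CCAAT box 182 bases before it. The *Ptrf* window had 1 GC box and a CCAAT box 63 bases before the RefSeq start. AGGTCA occurred in none of these windows. Of 32851 RefSeq windows of this length, 35.7% held GGGCGG, 37.4% CCAAT and 16.3% AGGTCA. These matches are descriptions of the letters, and binding was not measured here.

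The protein-coding genes next to the *Cav2* and *Cav1* pair differed among themselves. *Met*, which encodes the receptor of hepatocyte growth factor and begins 122347 bases beyond *Cav1*, rose from 104 ± 10.8 to 144 ± 15.9 CPM (SD, n = 3 each). This is a difference of 0.47 on the log2 scale (standard error 0.106, adjusted p = 0.0472, edgeR), and without any 1 of the 6 libraries its adjusted p-value lay between 0.0687 and 0.117. With no scaling beyond the library total the adjusted p of *Met* was 0.0613 in edgeR. *Tes* on the other side of the pair had a log2 fold change of 0.07 (adjusted p = 0.855), *Capza2* beyond *Met* had -0.15 (adjusted p = 0.333), and *Tfec* had 0 counts in all libraries. Around *Ptrf*, the log2 fold changes of *Stat3*, *Stat5a*, *Atp6v0a1* and *Naglu* were 0.12, 0.15, 0.07 and 0.05, with adjusted p-values from 0.423 to 0.749 in edgeR. With no scaling beyond the library total, the values of *Tes*, *Atp6v0a1* and *Naglu* changed sign.

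*Sdpr* encodes cavin-2, which promotes membrane curvature. It lies on chromosome 1 from 51289126 to 51302960 on the plus strand. It had 374, 299.5 and 416 CPM in AdLacZ replicates 1, 2 and 3, and 410.0, 470.5 and 551 CPM in Ad*Lmo3* replicates 1, 2 and 3. The lowest Ad*Lmo3* library lay below the highest AdLacZ library, which makes *Sdpr* the gene of the 6 whose groups overlapped. Its log2 fold change of 0.39 was close to that of *Ptrf*, but with a standard error of 0.143, a 95% interval of 0.06 to 0.72 and an adjusted p of 0.168 (edgeR).

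*Cav1*, *Cav2*, *Sdpr* and *Ehd2* (the values of *Ehd2* follow) shared their order within the groups. All 4 were lowest in AdLacZ replicate 2 and highest in AdLacZ replicate 3, and lowest in Ad*Lmo3* replicate 1 and highest in Ad*Lmo3* replicate 3. The summed adipocyte markers had the same order, with 27140, 24300 and 27500 CPM in AdLacZ and 33170, 37380 and 39980 CPM in Ad*Lmo3* replicates 1, 2 and 3. Preadipocyte and fibroblast markers had the reverse order in both groups, with 32240, 32450 and 26730 CPM in AdLacZ and 37230, 33970 and 25210 CPM in Ad*Lmo3* replicates 1, 2 and 3. Both sums depend most on their most abundant genes, such as collagens and *Lpl*, and the order of each single marker is not given here. The part of either marker list in this order was not tested. *Ptrf* and *Prkcdbp* did not share it, as both were highest in replicate 2 and lowest in replicate 3 of Ad*Lmo3*. With 3 libraries in a group, this order only describes these libraries.

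*Prkcdbp* encodes cavin-3, a cavin that binds protein kinase C delta. It lies on chromosome 7 from 105480083 to 105482300 on the minus strand. Its values were 138, 145.0 and 138.5 CPM in AdLacZ replicates 1, 2 and 3, and 153, 178 and 149.5 CPM in Ad*Lmo3* replicates 1, 2 and 3. The groups did not overlap, and the lowest Ad*Lmo3* library was just above the highest AdLacZ library. The log2 fold change was 0.19 (standard error 0.0817, 95% interval 0.00 to 0.38, adjusted p = 0.234, edgeR), the smallest of the 6. It was 0.11 without Ad*Lmo3* replicate 2 and 0.12 with no scaling beyond the library total. Of its exonic bases 22.5% overlap *Gm45667* on the opposite strand, a gene that the count tables do not list. The strand setting of the counting is not given in the sources used here, and without strand the reads of these genes cannot be told apart. None of the other genes overlapped the exons of another gene or shared a stretch of 75 bases, the read length, with one.

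*Ehd2* lies on chromosome 7 from 15946958 to 15967567 on the minus strand. It had 809, 799 and 856.5 CPM in AdLacZ replicates 1, 2 and 3, and 929, 944 and 976 CPM in Ad*Lmo3* replicates 1, 2 and 3. The groups were apart and the spread was small, with a coefficient of variation of 3.73% and 2.53%. The log2 fold change of *Ehd2* was 0.21 (standard error 0.0687, 95% interval 0.05 to 0.37), with an adjusted p of 0.133 from edgeR, and it was 0.14 with no scaling beyond the library total. DESeq2, the tool named in the study's methods, passed *Cav2* (adjusted p = 0.0227), *Sdpr* (0.0445) and *Ehd2* (0.0312) in addition to *Cav1* and *Ptrf*, and not *Prkcdbp* (0.220). With DESeq2, 1096 genes passed, 8.32% of the 13170 genes that it gave an adjusted p-value.

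The muscle genes of the family were absent or sparse. *Cav3*, the caveolin of striated muscle, had 0 counts in all 6 libraries, where a floor of 3 counts corresponds to 0.0768 to 0.111 CPM and covers counting error only. *Murc*, which encodes the muscle cavin-4, had 12, 9 and 11 counts in AdLacZ and 16, 17 and 14 counts in Ad*Lmo3* replicates 1, 2 and 3. Its log2 fold change of 0.66 had a standard error of 0.318 and an adjusted p of 0.294 (edgeR), and the 95% interval reached from -0.08 to 1.39.

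Levels between the genes were compared as CPM per kilobase of exon. *Cav1* stood first, with 613 ± 57.6 CPM per kb in AdLacZ and 895 ± 64.9 CPM per kb in Ad*Lmo3* libraries (SD, n = 3 each). *Cav2* (262 ± 33.3 and 338 ± 37.7 CPM per kb) and *Ptrf* (249 ± 6.98 and 331.5 ± 4.81 CPM per kb) came next. They could not be ordered, since *Cav2* was the higher in 2 of 3 AdLacZ and in 1 of 3 Ad*Lmo3* libraries. *Ehd2* (160.5 ± 5.99 and 185.5 ± 4.70 CPM per kb), *Sdpr* (119 ± 19.3 and 156 ± 23.2 CPM per kb) and *Prkcdbp* (84.5 ± 2.38 and 96.5 ± 9.49 CPM per kb) followed. Within each group the ranges of the other neighbours in this order did not overlap. Among the 12661 tested genes whose exon length was known, *Cav1* ranked 29 by mean CPM per kb in AdLacZ and 16 in Ad*Lmo3* libraries, and *Prkcdbp* ranked 508 and 447.

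Together the 6 genes took 0.5435%, 0.489% and 0.568% of all gene counts in AdLacZ replicates 1, 2 and 3, and 0.653%, 0.670% and 0.718% in Ad*Lmo3* replicates 1, 2 and 3. The means were 0.534% ± 0.0406 and 0.680% ± 0.0338 (SD, n = 3 each), a 1.27-fold difference. An exact two-sided permutation test gave p = 0.1 for this share, the smallest value that 3 against 3 libraries allow. Groups without overlap always give this value, and 26.5% of all genes tested did not overlap. The share sums the genes described above and is not separate evidence.

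Because the changes differed in size, read counts were also set against *Cav1* within each library, which removes the scaling between libraries. *Ehd2* had 0.378, 0.421 and 0.374 reads per *Cav1* read in AdLacZ replicates 1, 2 and 3, and 0.320, 0.314 and 0.293 in Ad*Lmo3* replicates 1, 2 and 3. *Prkcdbp* had 0.0644, 0.0763 and 0.0604 reads per *Cav1* read in AdLacZ and 0.0527, 0.0594 and 0.0448 in Ad*Lmo3* replicates 1, 2 and 3. *Cav2* had 0.423, 0.395 and 0.421 reads per *Cav1* read in AdLacZ and 0.361, 0.353 and 0.381 in Ad*Lmo3* replicates 1, 2 and 3. For these 3 genes each Ad*Lmo3* ratio was below each AdLacZ ratio. *Cav1* had the largest log2 fold change of the genes compared here, so lower mean ratios to it restate the fold changes above. They are not separate evidence, and the share of other genes with such ratios was not computed. The mean log2 ratio to *Cav1* was lower by 0.34 for *Ehd2* (-1.36 ± 0.094 and -1.70 ± 0.067, SD, n = 3 each), with an exact permutation p of 0.1 and an adjusted p of 0.175 over 7 ratios. The difference in log2 ratio was -0.36 for *Prkcdbp* and -0.18 for *Cav2*, with the same exact p. *Ptrf* and *Sdpr* overlapped between groups in their ratio to *Cav1*, with differences of -0.13 (exact permutation p = 0.5) and -0.15 (p = 0.2). Without AdLacZ replicate 2 or Ad*Lmo3* replicate 3 the *Ptrf* to *Cav1* difference was -0.05 or -0.06, and without Ad*Lmo3* replicate 1 the *Sdpr* to *Cav1* difference was -0.09. Among the cavins, the *Sdpr* to *Ptrf* log2 ratio differed by -0.02 (exact permutation p = 1) and the *Prkcdbp* to *Ptrf* ratio by -0.23 (p = 0.1), without overlap in the second. The sign of the *Sdpr* to *Ptrf* difference turned without AdLacZ replicate 1 (0.03) or 3 (0.07) or Ad*Lmo3* replicate 1 (0.09). No ratio passed the threshold, which 3 libraries a group cannot reach.

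**Figure D2:**
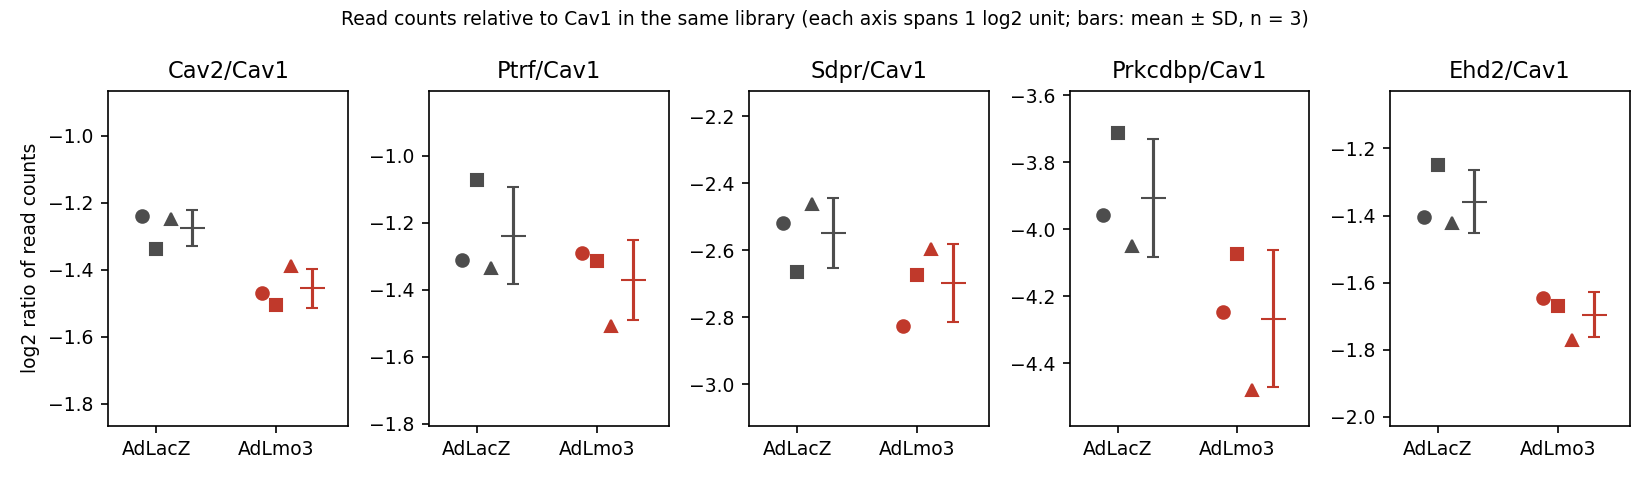
Log2 ratio of read counts to *Cav1* within each library (vertical axes, each spanning 1 log2 unit), for AdLacZ (grey) and Ad*Lmo3* (red), with circles, squares and triangles for replicates 1, 2 and 3 and bars for the mean ± SD. *Ehd2*, *Prkcdbp* and *Cav2* relative to *Cav1* lie lower in every Ad*Lmo3* library, while *Ptrf* and *Sdpr* relative to *Cav1* overlap.

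Other genes of caveolae and of a second endocytic coat were read from the same fit. Among the other EHD proteins, pacsins and dynamins, which act at the neck, none of 8 tested genes passed in edgeR, DESeq2 or limma voom. The 1 gene with an unadjusted p under 0.05 in edgeR, *Ehd3*, had a log2 fold change of -0.33 (adjusted p = 0.154), opposite in sign to *Ehd2*. Their median log2 fold change was 0.02, with *Ehd1* at 0.07 (adjusted p = 0.755, and below 0 with no scaling), *Dnm2* at -0.05 (0.700) and *Pacsin2* at -0.06 (0.654). The 5 genes for flotillins and for filamins, actin linkers of caveolae, had a median of 0.08, and none passed with any of the 3 tools. Only 1 had an unadjusted p under 0.05 in edgeR, *Flot2* at 0.16 (adjusted p = 0.166), or 0.09 with no scaling beyond the library total. Among 5 kinases and phosphatases that act on caveolin-1, such as *Abl1* (0.12, adjusted p = 0.346), none passed with any of these tools and none had an unadjusted p under 0.05. No difference between these lists and the 6 caveolar genes was tested.

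Of the 9 clathrin and AP-2 genes, which build the coat of clathrin-coated pits, *Cltb*, a clathrin light chain, rose from 31.8 ± 2.05 to 40.3 ± 1.34 CPM (SD, n = 3 each, log2 fold change 0.34, adjusted p = 0.0372, edgeR). Its adjusted p was 0.0448 without AdLacZ replicate 1, from 0.0759 to 0.154 without any other library, and 0.0778 with no scaling. *Cltc*, the heavy chain, had a log2 fold change of -0.06 (adjusted p = 0.734), and the median of the list was -0.04. With *Cltb*, 3 of the 9 had an unadjusted p under 0.05 in edgeR, where 20.6% of all genes tested did. The others of these had values below 0. The other light chain, *Clta*, had -0.17 (adjusted p = 0.155 in edgeR). *Ap2m1*, an AP-2 subunit, had -0.20 (adjusted p = 0.176 in edgeR, and -0.13 without AdLacZ replicate 1). Neither gene overlapped between groups, and 26.5% of all genes tested did not overlap either.

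Among the genes for 10 proteins reported in or bound to adipocyte caveolae, the mRNA of 3 rose, none fell and 9 lay above 0. Their median log2 fold change was 0.32, and over all genes tested 2.71% passed as higher and 50.4% lay above 0. *Aoc3*, an amine oxidase of the adipocyte surface, rose from 1130.5 ± 139 to 1896 ± 249 CPM (SD, n = 3 each, log2 fold change 0.75, adjusted p = 0.0186, edgeR). *Lipe*, hormone-sensitive lipase, rose by 0.59 (adjusted p = 0.0179) and *Plin1*, the lipid droplet coat protein perilipin-1, by 0.56 (adjusted p = 0.0184). The calls of all 3 were lost without AdLacZ replicate 1, 2 or 3 or Ad*Lmo3* replicate 2, with adjusted p-values of 0.0515 to 0.0884 in edgeR. *Cd36*, a fatty acid transporter, had a log2 fold change of 0.10 (adjusted p = 0.794 in edgeR), and *Slc2a4*, the glucose transporter GLUT4, 0.08 (0.675). *Lipe*, *Plin1*, *Cd36* and *Slc2a4* are also on the list of adipocyte markers.

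Of 7 transcription factors reported at *Cav1*, *Pparg*, the master regulator of adipogenesis, rose from 389 ± 29.2 to 544 ± 56.0 CPM (SD, n = 3 each, log2 fold change 0.48, adjusted p = 0.0316, edgeR). Its call was kept without Ad*Lmo3* replicate 1 (adjusted p = 0.0254) and lost without any other library (0.0710 to 0.108). *Srebf1* had 0.21 (adjusted p = 0.414 in edgeR), which was 0.07 without Ad*Lmo3* replicate 3 and 0.34 without Ad*Lmo3* replicate 1. *Srebf2* had 0.04 (adjusted p = 0.831) and *Sp1* 0.00 (0.988), both below 0 with no scaling beyond the library total, and the median of the list was 0.13.

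**Figure D3:**
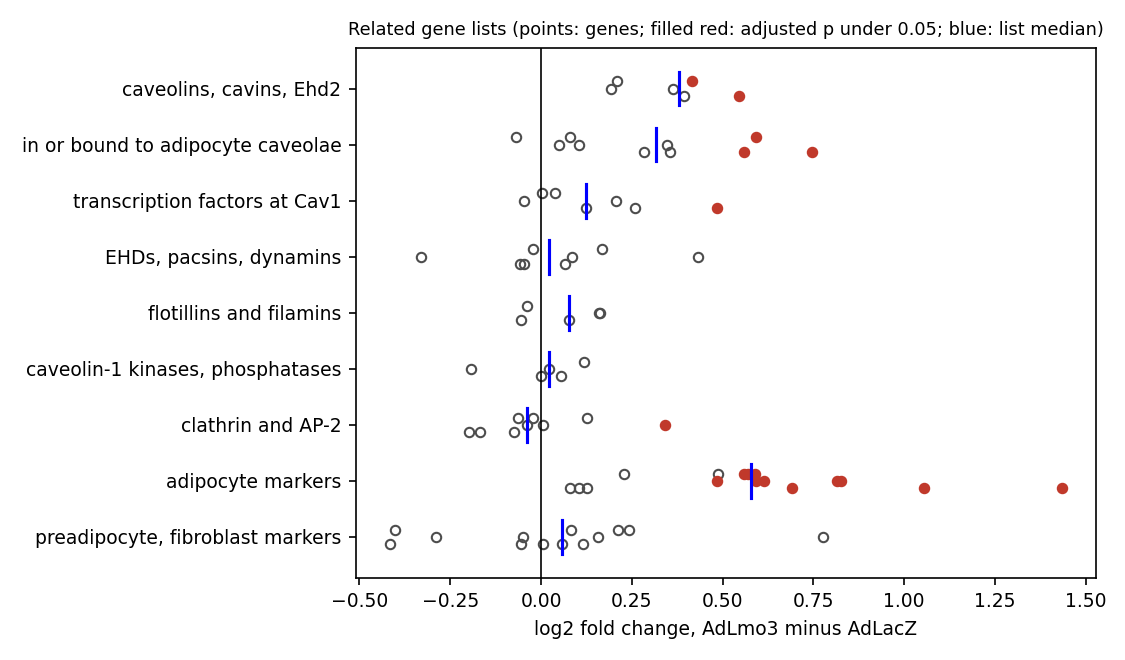
Log2 fold change (Ad*Lmo3* minus AdLacZ) of the tested genes of each list, in filled red where the adjusted p was under 0.05 (edgeR), with the median of each list as a blue line. The caveolin, cavin and *Ehd2* genes have a median of 0.38, the genes for proteins reported in adipocyte caveolae 0.32 and the neck genes 0.02.

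The genes whose level over the 6 libraries was most like that of *Cav1*, among 9147 genes with a mean of at least 10 CPM, were *Tmem159* and *Ganc* (both r = 0.997), *Yaf2* and *Hibadh* (both 0.996) and *Car13* (0.993), where r is Pearson's correlation of log2 CPM. *Ehd2* was rank 6 in this order (0.990), ahead of *Cav2* (rank 169, 0.95), *Ptrf* (302, 0.923), *Sdpr* (356, 0.915) and *Prkcdbp* (1826, 0.604). For *Ptrf* the most alike included *Mavs* (0.998), *Pter* (0.996), *Cidec* (0.995) and *Slit3* (0.993), and *Cav1* was rank 313. These values describe 6 libraries that share the difference between the groups.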

How the data were processed

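RNA-Seq was made from 3 replicates per virus, which the sample titles give by number only. The p-values measure the spread between these replicates of 1 cell line. The deposited files hold raw counts per gene symbol, which the authors made from 75 bp single reads. The submitters' processing notes name bcl2fastq, STAR 2.5.0b, DESeq2 1.6.3 and the mm10 build. The counting program, its annotation and its strand setting are not given in the sources used here. Rows for reads in no gene (7.15% to 8.94%) or ambiguous between genes (0.476% to 0.543%) were left out. Genes passing filterByExpr were tested in R 4.3.3 with edgeR 4.0.16 (TMM, glmQLFit and glmQLFTest, adjusted p under 0.05), without a block. DESeq2 1.42.0, limma 3.58.1 (voom), other scalings, no filter, a replicate block and leaving out each library were alternatives. The scripts were also run on simulated data, in which the true changes are known. There 200 genes were changed, each gene was drawn independently with the spread that edgeR estimated for it, and no scaling difference between groups was added. The rates below describe these settings and need not hold for the real libraries. For log2 fold changes of 0.5 in either direction, edgeR found 39 of 98 genes, limma voom 39 of 98 and DESeq2 56 of 100. For changes of 1 they found 84 of 98, 85 of 98 and 89 of 100. False calls were 7 of 130 in edgeR, 8 of 132 in limma voom and 29 of 174 in DESeq2. Annotation and exon lengths are from GENCODE vM21 (GRCm38). Ratios and shares were compared by exact permutation tests.

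The members and the gene lists were chosen with earlier results of these data known, so the counts of list members are descriptions. Named were the members, and from each list the genes past the threshold and up to 3 others of the highest level. The 2 nearest protein-coding genes on each side of *Cav2* and *Cav1* and of *Ptrf* and the 5 genes most like *Cav1* and *Ptrf* were also named. *Ehd3*, *Flot2*, *Clta* and *Ap2m1* fall outside this rule and were chosen after their values were seen. Some genes that the rule names are not reported here.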

Additional observations from a re-analysis of the deposited data

How the results depend on the processing

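All 6 genes had a log2 fold change above 0 in every fit run. *Cav1* (0.47 to 0.55) and *Ptrf* (0.34 to 0.42) kept their calls under the other scalings, without a filter, with DESeq2, with limma voom and with a replicate block. DESeq2, run without the low-count filter, called 1096 of the 13170 genes with an adjusted p-value, against 547 of 12766 in edgeR with the filter and 659 of 18078 in edgeR without it, and 5 members against 2, adding *Cav2* (0.367), *Sdpr* (0.396) and *Ehd2* (0.211). Leaving out 1 library gave 77 (without AdLacZ replicate 3) to 501 genes, of which 55 to 354 higher in Ad*Lmo3*, and 0 to 2 members, with log2 fold changes of 0.475 to 0.609 for *Cav1* and 0.392 to 0.429 for *Ptrf*. With no scaling beyond total counts 767 genes were called, the median of all genes moved to -0.07, and *Tes* (-0.005), *Atp6v0a1* (-0.005), *Naglu* (-0.023), *Ehd1* (-0.006), *Srebf2* (-0.036) and *Sp1* (-0.069) turned negative. Leaving out 1 library gave -0.034 to 0.213 for *Tes*, -0.020 to 0.129 for *Atp6v0a1*, -0.025 to 0.136 for *Ehd1*, -0.063 to 0.217 for *Cd36*, -0.013 to 0.082 for *Srebf2*, -0.075 to 0.046 for *Sp1*, 0.108 to 0.240 for *Prkcdbp*, -0.179 to -0.0487 for the *Ptrf* to *Cav1* and -0.209 to -0.0868 for the *Sdpr* to *Cav1* log2 ratio, and -0.160 to 0.0852 for the *Sdpr* to *Ptrf* log2 ratio. With the replicate block 498 genes were called, with log2 fold changes of 0.547 for *Cav1* (adjusted p = 0.0243) and 0.415 for *Ptrf* (adjusted p = 0.0341, edgeR), and no member's call changed. The replicate numbers were not treated as pairs, since same-numbered libraries correlated at 0.0278, 0.160 and 0.158 in their deviations from the group means, and not every library correlated best with its own number. The causes of these changes were not tested. With 3 libraries per group, exact permutation tests cannot go below p = 0.1.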
